A study of Danio rerio with 24 samples.

Results

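The angiotensin and endothelin system of the regenerating zebrafish ventricle was described through 9 genes chosen by name: agt, ren, ace, agtr1b and agtr2 of the angiotensin branch, and edn1, edn2, ednraa and ednrab of the endothelin branch. Of these names, 7 had a row among the 18987 genes of the table, each with 1 row, and agt and ren had none. The study profiled ventricle RNA of wild-type adult zebrafish in 24 pooled samples, each made from 3 or 4 ventricles and forming 6 groups of 4. The groups were exercised cryoinjured, non-exercised cryoinjured and non-exercised sham-operated fish, each at 7 and 14 days post-injury (dpi). Cryoinjury kills part of the ventricular wall by freezing. The exercised fish swam against a current in a tunnel after the injury, whereas the non-exercised cryoinjured fish rested, and atrium and bulbus arteriosus were removed from every heart before RNA extraction.

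Both branches are peptide systems that set vascular tone and act on the heart. In vertebrates, renin cuts angiotensinogen to angiotensin I, and angiotensin converting enzyme trims it to angiotensin II, which acts on type 1 and type 2 receptors. The type 1 receptor couples mainly to the Gq/11 family and raises blood pressure, whereas the type 2 receptor is described in mammals as opposing several of its actions. Endothelins are made as longer precursors, released by endothelin converting enzymes and read by type A and type B receptors. In zebrafish, edn1 and the type A receptors are best known for patterning the lower jaw.

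The value given for each gene is the authors' mean normalized count, 1 number per gene over the samples that entered their model. The methods of the study name the 16 cryoinjured pools for RNA sequencing and no sham-operated ones. Whether each of the 16, or any sham-operated pool, entered the mean is not given in the sources used here. The mean cannot be split by exercise, injury or time. No value per sample, SD or n can therefore be attached to it. The authors' own comparison of exercise was not used, and the effect of exercise, of injury or of time on these genes was not analysed here. The paper names agtr2 and ednra, the latter a human gene symbol without a paralog letter, among examples of its differentially expressed genes. The value is a mean of read counts scaled between samples, and is not divided by transcript length. A larger count in 1 gene than in another therefore need not mean a higher expression. A gene said below to have fewer reads has a lower mean normalized count. In whole ventricles, fewer cells of a type and less RNA per cell cannot be told apart. The mean counts of all listed genes summed to 11824275, with a median of 79.6 and quartiles of 17.3 and 266.1. Only 9 listed genes had a mean count of 0, and whether genes had been left out of the table was not examined. The shares below are shares of the listed genes only.

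No row was found for agt, the angiotensinogen gene, or for ren, the renin gene, by name, by RefSeq synonym or by the gene identifier paired with each symbol. The precursor and the first enzyme of the angiotensin branch are therefore not described here, and nothing can be said of their expression. The ace gene (ENSDARG00000079166), which encodes the converting enzyme, had a mean count of 80.9, and 50.3% of the listed genes had fewer reads. Its read support was thus that of a middle gene of the table.

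The angiotensin receptors were both listed. The agtr2 gene (ENSDARG00000035552), encoding the type 2 receptor, had a mean count of 158.6, and 64.7% of the listed genes had fewer reads. The agtr1b gene (ENSDARG00000045443), 1 of the zebrafish genes for the type 1 receptor, had a mean count of 11.5, and 19.8% of the listed genes had fewer reads. It is the member with the thinnest read support. The other type 1 receptor gene, agtr1a, had a mean count of 4.01.

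Both endothelin ligands of the set were listed. The edn1 gene (ENSDARG00000036912) had a mean count of 32.9, with 34.2% of the listed genes having fewer reads. For edn2 (ENSDARG00000070578) the mean count was 54.5, with 42.8% of the listed genes having fewer reads. Both ligands therefore lay below the median count of the table. The third type of ligand could not be described, as edn3a and edn3b had no row under these names.

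The type A endothelin receptors had the best read support of the set. The ednraa gene (ENSDARG00000011876) had a mean count of 527.1, and 86.3% of the listed genes had fewer reads. Its paralog ednrab (ENSDARG00000062262) had a mean count of 326.8, and 78.9% of the listed genes had fewer reads. Each paralog has its own row, and how reads shared between such copies were assigned is not given in the sources used here. For the type B receptors, ednrba and ednrbb, the mean counts were 2.40 and 4.13. Of the 7 listed members, 4 lay above and 3 below the median of the table.

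**Figure D1:**
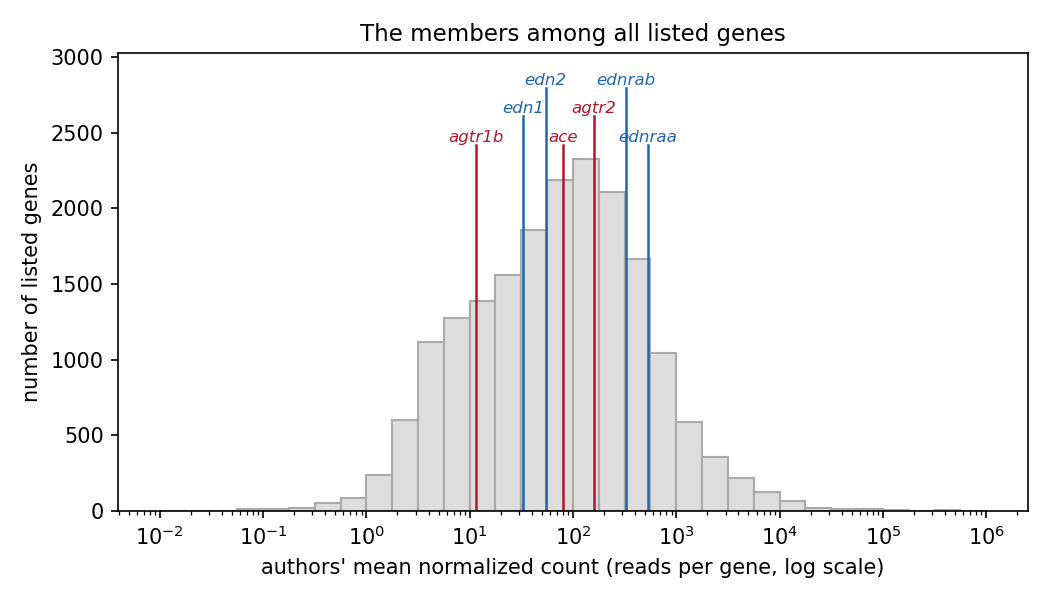
Histogram of the authors' mean normalized counts of the listed genes (reads per gene, log x axis; number of genes on the y axis; genes at 0 are left out), with a vertical line at each of the 7 listed members, angiotensin genes in red and endothelin genes in blue. The lines run from 11.5 for agtr1b to 527.1 for ednraa, on both sides of the median of 79.6.

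The size of a mean count limits how finely a gene can be measured in 1 library. If a library of average depth differed from the mean by counting error only, 95% of such libraries would hold 5 to 19 reads of agtr1b, a relative SD of 29.5%. For edn1 the range was 22 to 45 reads (17.4%), for edn2 41 to 69 (13.5%) and for ace 64 to 99 (11.1%). In such a library the ranges of edn1 and edn2 overlap, as do those of edn2 and ace, and that of agtr1b lies below the others. They are not the uncertainty of the means, and their overlap does not compare the expression of genes. For agtr2 the relative SD from counting was 7.94%, over 134 to 184 reads. The type A receptors were the most finely counted, with 4.36% for ednraa (483 to 573 reads) and 5.53% for ednrab (292 to 363 reads). These ranges cover counting error only, and the spread between pools of ventricles, which is not known here, comes on top.

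**Figure D2:**
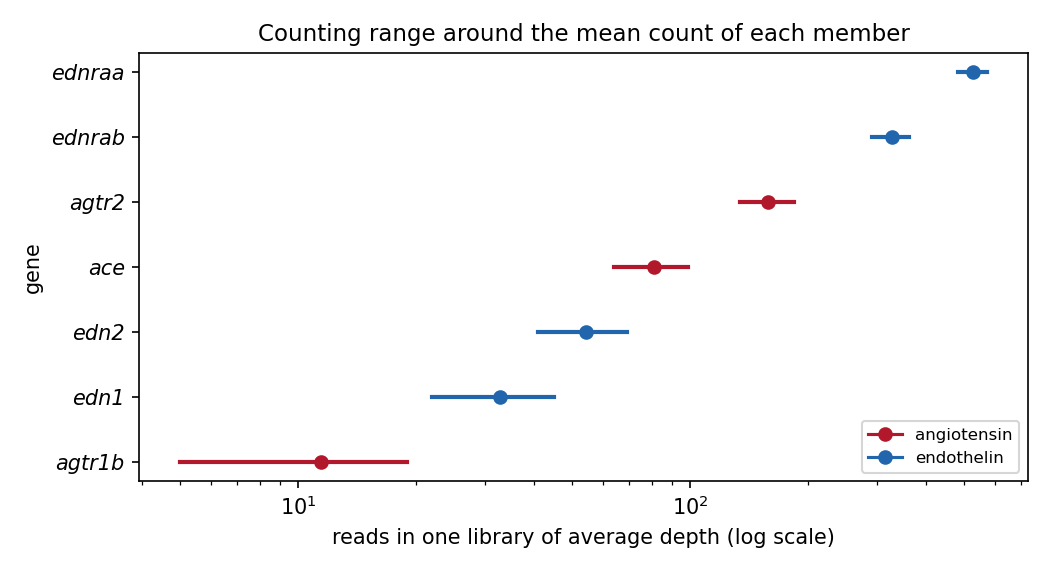
Mean normalized count (points) of each listed member with the central 95% Poisson range of the reads in 1 library of average depth (lines; log x axis in reads), angiotensin genes in red and endothelin genes in blue. The range of agtr1b spans 5 to 19 reads, whereas that of ednraa spans 483 to 573, and neither includes the spread between samples.

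Where gene spans overlap, reads of another gene can be counted for a member, or reads of the member can be left out. The spans compared here include introns. Whether the counting used strand, and how it treated reads on overlapping genes, is not given in the sources used here. In the RefSeq annotation of GRCz12tu, a later assembly than the GRCz10 of the authors' alignment, 5 of the 7 listed members overlapped no other gene. The span of ace overlapped 1 gene, itga3b, which encodes an integrin subunit. The span of agtr1b overlapped 4 genes, the transcription factor genes zic1 and zic4 and a pair of long non-coding RNA genes. Whether these overlaps added reads to the counts of ace and agtr1b or removed reads from them was not tested.

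Around the members, 17 of 24 further gene names of the system had a row. Among the angiotensin genes, 9 of 13 were listed. The peptidases that cut angiotensins or related peptides were represented by lnpep with a mean count of 570.7, prcp with 300.2, prep with 97.8 and enpep, aminopeptidase A, with 51.8. The lysosomal protease gene ctsd, whose product can cut angiotensinogen in vitro in mammals, had 1622. The (pro)renin receptor gene atp6ap2, which also serves the proton pump of lysosomes, had 489.1. The mean counts of agtrap, which encodes a protein bound to the type 1 receptor in mammals, and of nr3c2, the mineralocorticoid receptor gene, were 62.5 and 77.9. No row was found for mas1, anpepa, anpepb or mme. The names mas1, anpepb and mme were also missing from the references used here, so that a row under another name may have been missed.

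Of the endothelin genes outside the set, 5 of 7 were listed. The converting enzyme genes ece1, ece2b and ece2a had mean counts of 774.8, 249.3 and 10.3. The identifier listed as ece2a carries another symbol, EEF1AKMT4, in the gene name table, so that its identity is uncertain. Symbols without a paralog letter are carried there by agtr1a and agtr1b (AGTR1), ednraa (EDNRA), ednrba and ednrbb (EDNRB) and ece2b (ECE2). Which paralog each of these is rests on the authors' gene name alone. For the coupling of these receptors, gna11a and gna11b, which encode G protein alpha subunits of the Gq/11 family, had 196.0 and 193.8, and plcb3, a phospholipase C gene, had 567.6. The gnaq gene had no row. In all, 24 of the 33 names of the list had a row, 3 of them with a mean count below 10, namely agtr1a, ednrba and ednrbb. Of all listed genes, 18.0% had a mean count below 10. These 3 are receptor genes, whereas the receptor genes agtr1b, agtr2, ednraa and ednrab had mean counts from 11.5 to 527.1.

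**Figure D3:**
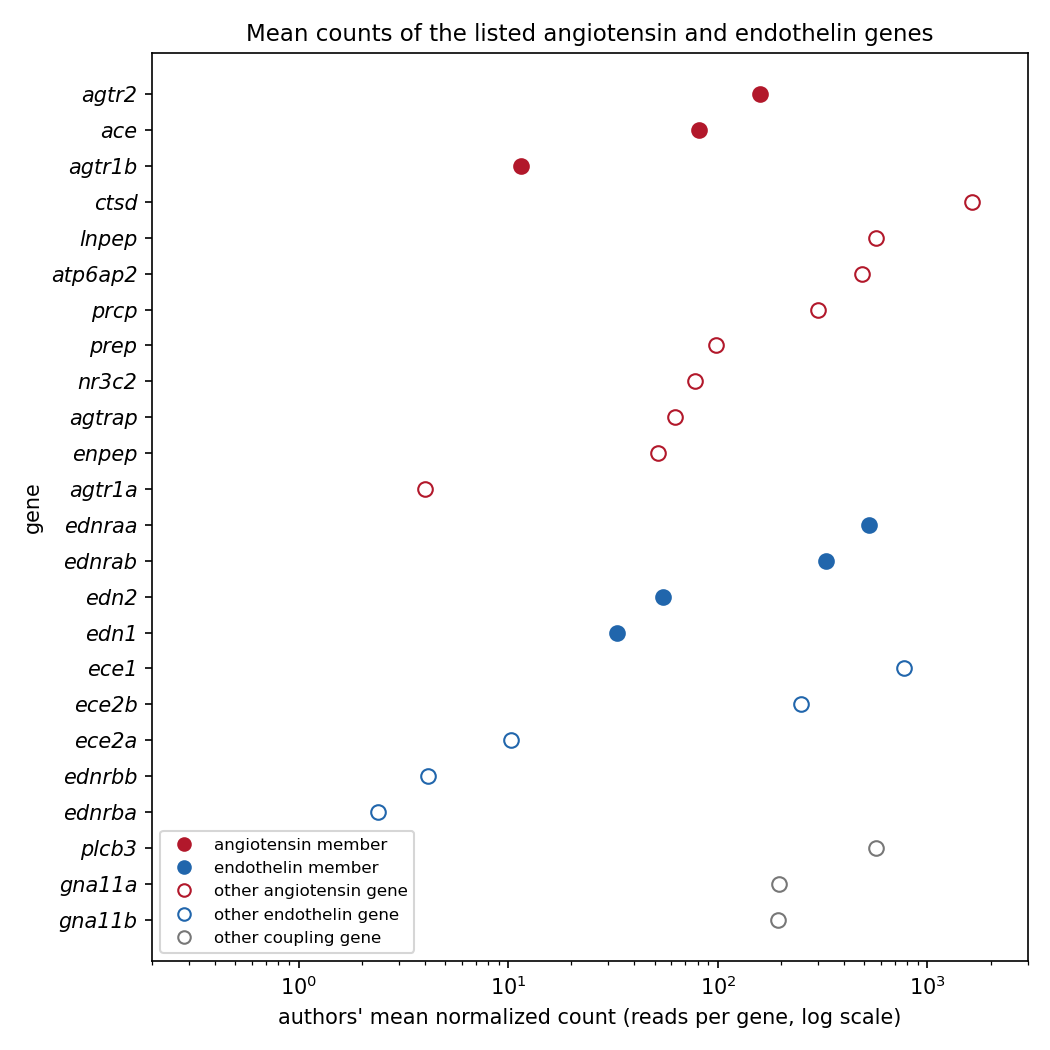
Authors' mean normalized count (reads per gene, log x axis) of the 24 listed genes of the system, with filled points for members and open points for other genes, angiotensin genes in red, endothelin genes in blue and receptor coupling genes in grey. The type 1 angiotensin and type B endothelin receptor genes lie at or below 11.5 and the type A endothelin receptor genes at 326.8 and 527.1, and counts of different genes are not on one scale of expression.

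The tissue label was checked against cell markers in the same column. The listed cardiomyocyte markers, 6 of 8, had mean counts from 2389 to 163295, among them vmhc, the ventricular myosin heavy chain gene, with 37309. They were chosen for ventricular cardiomyocytes, but genes such as myl7, with the highest count of them, are also active in atrial cardiomyocytes. All 6 endothelial and endocardial markers were listed, with mean counts from 241.8 to 3550, as were all 5 smooth muscle and mural cell markers, with 135.0 to 1749. The names pecam1 and acta2 in these lists had 2 rows each, of which the row with more reads was taken, and that of pecam1 sets the lower end of the endothelial range. In mammals, type A endothelin receptors are best known in smooth muscle cells and cardiomyocytes. The 5 fibroblast and epicardial markers had mean counts from 211.8 to 12777, the 3 macrophage markers from 234.9 to 464.9, and the red cell genes hbaa1 and alas2 had 25133 and 4339. The atrium was removed, and the genes listed as atrial markers, the myosin gene myh6 and the natriuretic peptide gene nppa, had 3281 and 25667. The paper also treats nppa as a marker of cardiac stress and as an injury-response gene of the cryoinjured area. Whether the reads of myh6 and nppa came from atrial tissue left on the ventricles or from the ventricles themselves was not tested. Among the liver markers, fabp10a and apoa1b had 5.09 and 5.996, whereas tfa had 3333. The kidney tubule markers cubn, lrp2a and slc20a1a had 7.52, 113.2 and 636.7. The markers without a row were ttn.1, ttn.2 and hbba1. Markers were matched by name only, so that rows of these genes under other names may have been missed. The part of each cell type in the counts of the members was not tested.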

How the data were processed

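Total RNA of pooled ventricles was captured by poly-A and sequenced on an Illumina instrument. The authors had the libraries made and sequenced by GenomeScan. The submitters' processing notes name TopHat2 2.1.0, HTSeq 0.6.0, DESeq2 and the build GRCz10. Annotation and strand setting are not given in the sources used here, nor is which pools, cryoinjured or sham-operated, entered the mean. The deposited signal is the authors' mean normalized count per gene, a mean of read counts divided by size factors. The table has 0 columns of values per sample, so that depth per sample is unknown. Its 7 columns of the authors' own comparison, which hold estimates, errors and p-values of the contrast and its fold changes at 7 and 14 dpi, were not used.

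From the mean counts, the share of listed genes with fewer reads and central 95% Poisson ranges were computed. The computation of the range was checked on draws from the same Poisson model. That check cannot tell whether the model holds for these libraries. Genes were matched by name, case ignored. The 7 members with a row of the 9 given, the 24 further genes of a fixed list of the system and all cell markers were treated whatever their counts; the members and lists were chosen with earlier results of these data known. The list as first fixed held 1 more item, which was left out and is not reported here. The planned levels per coding length, summed levels by role and protein identities were not made, as no transcript lengths or sequences were used here. The planned edgeR test of exercise was not run for lack of counts per sample. Gene spans for overlaps came from RefSeq, GRCz12tu. Python 3.11.15, numpy 2.4.6, pandas 2.3.3, scipy 1.17.1 and matplotlib 3.10.9 were used.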

Additional observations from a re-analysis of the deposited data

How the results depend on the processing

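The number of genes of the system with a row was 24 by name, by name or RefSeq synonym, and by name or gene identifier, the last chosen after seeing the data. For mas1, anpepb, mme and edn3a the references held no identifier and no RefSeq entry under the name. The alternatives could therefore not have found these genes. The share of genes with fewer reads was lower for all 7 members when only the 15560 genes with a mean count of at least 10 were ranked: 39.4% for ace, 2.1% for agtr1b, 56.9% for agtr2, 19.8% for edn1, 30.2% for edn2, 83.3% for ednraa and 74.2% for ednrab. This follows from leaving out genes with few reads. Within the 24 listed genes of the system, the shares were 41.7% for ace, 16.7% for agtr1b, 50% for agtr2, 20.8% for edn1, 29.2% for edn2, 79.2% for ednraa and 70.8% for ednrab. The alternatives on length, rows that share a name and protein identity were not run, nor were those of the exercise test, including leaving out replicates. No paired analysis was possible because the table holds 1 pooled mean per gene and no values per sample. In 1 library, counting error limits the precision of each member, most of all for agtr1b, while the spread between pools is not known here.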
